A study of Mus musculus with 2 samples.

Results

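CC chemokine receptors are the cell-surface receptors that steer leukocytes towards tissues releasing CC chemokines. The 8 members described here, Ccr1, Ccr2, Ccr3, Ccr4, Ccr6, Ccr7, Ccr8 and Ccr9, were taken by gene name from tables of 34745 gene rows, and each name matched 1 row in both libraries. All 8 reached 1 CPM (the count scaled to the size of its library) in 1 or both libraries, as were 13464 gene rows in all. The RNA was that of regulatory T (Treg) cells, a CD4 T cell lineage that is defined by Foxp3 and holds immune responses in check. They were sorted as CD4+ YFP+ spleen cells of C57BL/6 mice aged 2 weeks. The knockout library came from poh1fl/fl Foxp3Cre+ mice and the wild-type library from poh1+/+ Foxp3Cre+ mice, so both genotypes carried the Cre allele, which is driven from Foxp3 and acts in Foxp3-expressing cells. POH1 is the product of Psmd14, the deubiquitinase of the proteasome lid. Each genotype had 1 library, and any pooling of mice is not given in the sources used.

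Each receptor is a G protein-coupled receptor of the Gi class. Ligand binding frees G protein subunits that activate phosphoinositide 3-kinase and Rac, and the cell moves up the chemokine gradient. CCR7 binds CCL19 and CCL21 and brings T cells into lymph nodes and the T cell zone of the spleen. CCR9 binds CCL25 of the thymus and small intestine, and CCR6 binds CCL20 of mucosal surfaces. CCR4, which binds CCL17 and CCL22, and CCR8, which binds CCL1 and in the mouse CCL8, are known for skin and other barrier tissues. CCR1, CCR2 and CCR3 are best known for monocytes and granulocytes entering inflamed tissue, and effector T cells also use CCR2. Treg cells resting in lymphoid organs are known to carry CCR7, whereas effector Treg cells carry more of the tissue receptors.

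The gene counts summed to 14544212 in the knockout library and 18124611 in the wild-type library. Psmd14 was at 31.8 CPM in the knockout library and 89.4 CPM in the wild-type library, the direction that the labels give. The Treg markers Foxp3, Il2ra, Ctla4, Ikzf2, Tnfrsf18, Cd3e and Cd4 summed to 5001 CPM in the knockout library and 4751 CPM in the wild-type library, and 0 of the 7 were called by the rule given next. Within these sums the markers moved both ways. Foxp3 was at 1073 CPM in the knockout library and 671 CPM in the wild-type library, and Il2ra at 1530 and 990 CPM. Ctla4 was at 703 CPM in the knockout library and 1120 CPM in the wild-type library, and Ikzf2 at 526 and 825 CPM. The other Treg markers differed less. No difference could be checked in a second library of its genotype, and no test was made. Values in parentheses are exact 95% intervals for counting error alone, so they say nothing of the variation among mice. A gene was called higher or lower in the knockout library where the interval of the ratio lay wholly beyond 2-fold. Across all measured genes this rule called 4.34% higher and 6.63% lower, and their log2 ratios (knockout over wild type) had a median of -0.01.

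The receptors went in both directions. The lymphoid receptor Ccr7 and the gut receptor Ccr9 were higher in the knockout library, Ccr6 differed little, and Ccr4, Ccr8, Ccr2 and Ccr3 were lower. That is 2 of 8 called higher and 4 of 8 called lower, with log2 ratios between -4.22 and 1.48. The 2 receptors not called were Ccr6 and Ccr1. Fewer cells of a type and less RNA per cell cannot be told apart in such bulk samples.

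**Figure D1:**
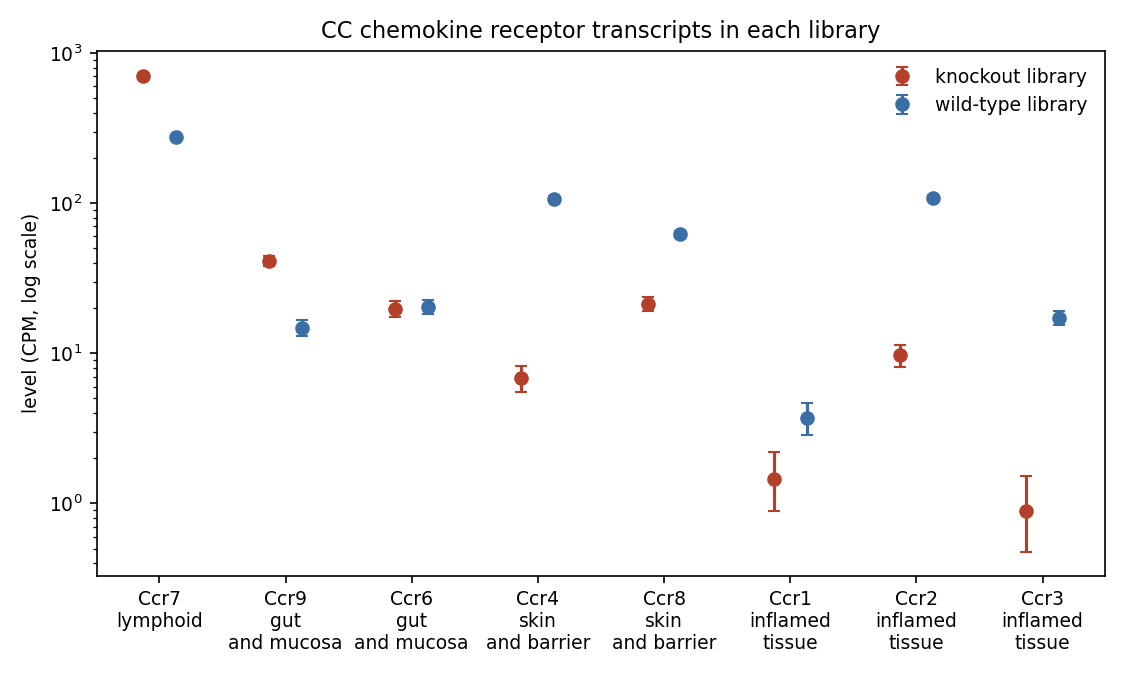
Level of each receptor in CPM (log axis) in the knockout library and the wild-type library, with bars for the exact 95% Poisson interval of the count. Ccr7 stands at 704 CPM in the knockout library and 276 CPM in the wild-type library, while Ccr4 and Ccr2 stand below 10 CPM in the knockout library and above 100 CPM in the wild-type library.

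Several upstream sequences are shown because they belong to the receptors whose levels differed most, the 4 that were lower and the 1 higher receptor whose sequence the RefSeq table (GRCm38.p6, the mm10 build) holds. They are the 250 bases before each RefSeq start, read 5′ to 3′ on the gene's strand. A RefSeq start need not be the outer end of the GENCODE M21 gene span given below. The Ccr4 and Ccr9 windows lie wholly inside that span, as do most of the Ccr2 window and the last bases of the Ccr8 window. Of the windows shown, only that of Ccr3 lies wholly before the span. Capitals mark matches on either strand to short motifs of several factor families. GATA factors were represented by the letters AGATAA. For AP-1 factors the letters were TGANTCA. For RUNX factors they were TGTGGT, and for KLF factors they were CACCC. No 2 matches overlap.
Ccr4 promoter, chr9:114496545-114496794, minus strand: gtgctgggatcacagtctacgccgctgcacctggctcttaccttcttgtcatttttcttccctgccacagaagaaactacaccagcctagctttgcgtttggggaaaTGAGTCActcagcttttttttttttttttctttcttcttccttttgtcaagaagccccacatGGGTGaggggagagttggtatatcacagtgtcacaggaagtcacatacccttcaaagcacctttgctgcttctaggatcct
Ccr8 promoter, chr9:120091883-120092132, plus strand: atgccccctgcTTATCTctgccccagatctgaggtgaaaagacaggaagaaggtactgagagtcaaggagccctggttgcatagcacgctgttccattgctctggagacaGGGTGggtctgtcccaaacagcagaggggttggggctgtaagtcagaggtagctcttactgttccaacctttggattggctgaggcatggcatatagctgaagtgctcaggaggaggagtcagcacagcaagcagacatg
Ccr2 promoter, chr9:124101933-124102182, plus strand: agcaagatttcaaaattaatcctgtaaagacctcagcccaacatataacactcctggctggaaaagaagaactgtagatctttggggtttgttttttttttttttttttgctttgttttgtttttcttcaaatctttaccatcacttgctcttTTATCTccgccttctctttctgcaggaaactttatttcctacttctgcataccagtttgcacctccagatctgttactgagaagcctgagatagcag
Ccr3 promoter, chr9:124021721-124021970, plus strand: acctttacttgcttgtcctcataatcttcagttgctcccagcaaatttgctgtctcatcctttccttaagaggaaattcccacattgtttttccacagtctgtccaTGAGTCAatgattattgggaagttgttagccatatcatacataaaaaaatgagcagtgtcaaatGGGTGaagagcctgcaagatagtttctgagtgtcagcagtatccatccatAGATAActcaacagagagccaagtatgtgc
Ccr9 promoter, chr9:123766961-123767210, plus strand: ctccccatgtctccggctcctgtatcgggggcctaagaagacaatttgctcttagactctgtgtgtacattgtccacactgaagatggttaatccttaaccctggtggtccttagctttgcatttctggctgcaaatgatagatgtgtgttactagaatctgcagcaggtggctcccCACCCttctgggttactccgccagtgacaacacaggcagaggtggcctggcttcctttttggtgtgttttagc

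The table held 8 windows of 7 of the 8 receptors, Ccr6 with 2 of them. The GATA letters occurred in the windows of Ccr8, Ccr2 and Ccr3, which were lower, and also in 1 of the windows of Ccr6, which differed little, against 9.99% of 32851 promoter windows of the same length. The AP-1 letters occurred in those of Ccr4 and Ccr3, against 6.75% of all windows, with the match starting 143 bases before the start in Ccr4 and 144 bases before it in Ccr3. The RUNX letters occurred in the window of Ccr1, against 14.0% of all windows. The KLF letters, present in 52.0% of all windows, occurred in those of Ccr4, Ccr8 and Ccr3 and in that of Ccr9, which was higher. A match describes letters in a window and does not show binding, and the motifs were chosen with the receptors' values known.

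Ccr7 maps to chromosome 11, 99144196 to 99155077, minus strand (mm10, GENCODE M21, as for all genes here), as a protein-coding gene (ENSMUSG00000037944.8). It had 10249 counts in the knockout library and 5008 in the wild-type library. Scaled, the level was 704 CPM (691 to 718) in the knockout library and 276 CPM (269 to 284) in the wild-type library, 2.55-fold higher (2.46 to 2.64). Ccr7 was the most abundant of the receptors in both libraries, and more abundant than 98.97% of measured genes in the knockout library and 94.8% in the wild-type library. A higher ratio was seen in 738 of the 13464 measured genes.

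Ccr9, the receptor of the thymus and small intestine, maps to chromosome 9, 123678439 to 123784330, plus strand (ENSMUSG00000029530.16). It had 600 counts in the knockout library and 267 in the wild-type library, which is 41.2 CPM (38.01 to 44.7) in the knockout library and 14.7 CPM (13.02 to 16.6) in the wild-type library. The level was 2.80-fold higher (2.42 to 3.25) in the knockout library. Its ratio exceeded that of Ccr7 by 1.10 times (0.945 to 1.28), an interval that includes 1. The count of Ccr9 is less certain than those of the other receptors. Its annotated exons overlap those of other genes over 21.5% of their length, mainly a transcript on the opposite strand, and the kit does not mark strand. The gene model also spans Lztfl1, which was at 51.3 CPM in the knockout library and 27.5 CPM in the wild-type library, a ratio of 1.86 (1.66 to 2.09). What these overlaps contribute to the Ccr9 ratio was not tested.

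Naive T cells other than Treg cells also carry CCR7 and CCR9, and both CD8 T cell markers had a ratio above 1. Cd8a was at 26.1 CPM in the knockout library and 7.40 CPM in the wild-type library, 3.52-fold higher (2.89 to 4.32), and Cd8b1 at 21.3 CPM in the knockout library and 11.4 CPM in the wild-type library. Of these 2 markers, 1 was called higher. The immature thymocyte markers Rag1, Rag2, Dntt and Ptcra, of which 1 of 2 measured was lower, summed to 1.31 CPM in the knockout library and 5.68 CPM in the wild-type library. Rag2 was at 0 in both libraries and Ptcra had 1 count in the knockout library and 0 in the wild-type library. The part of these cells in the Ccr7 and Ccr9 levels was not tested.

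Ccr6, the receptor for CCL20 of mucosal surfaces, differed little between the libraries. It maps to chromosome 17, 8236043 to 8257141, plus strand (ENSMUSG00000040899.14). It had 287 counts in the knockout library and 370 in the wild-type library, or 19.7 CPM (17.5 to 22.1) in the knockout library and 20.4 CPM (18.4 to 22.6) in the wild-type library. The ratio was 0.966 (0.825 to 1.13), so a difference beyond that interval was not seen in these counts. B cells are known to carry CCR6, and 6 of 8 B cell markers were lower, the list summing to 31.9 CPM in the knockout library and 126 CPM in the wild-type library. The part of B cells in the Ccr6 level was not tested. Within the gut and mucosal class the ratio of Ccr9 exceeded that of Ccr6 by 2.89 times (2.33 to 3.60).

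**Figure D2:**
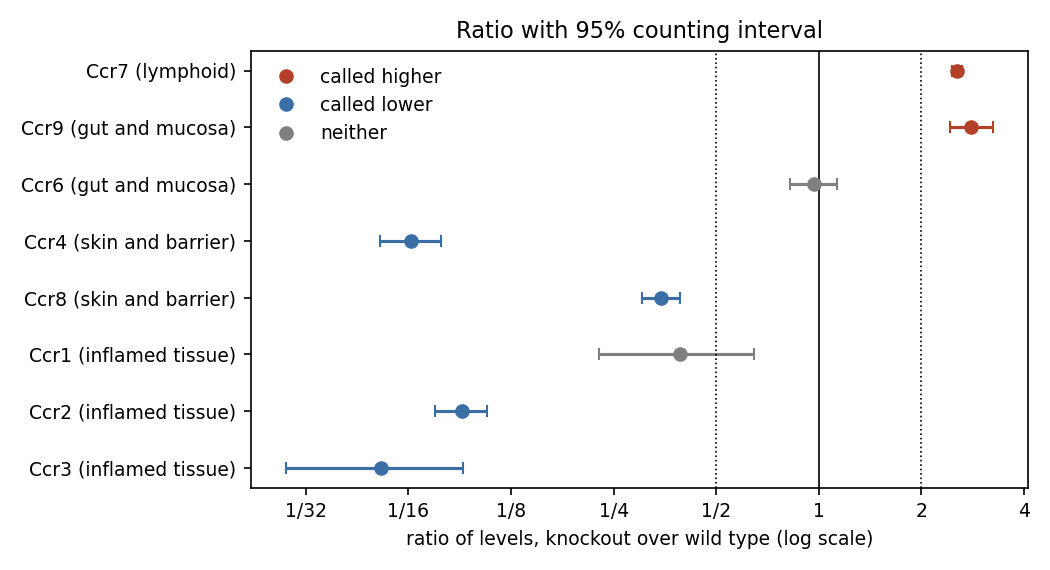
Ratio of knockout to wild-type level for each receptor (log axis) with its exact 95% counting interval, the solid line marking 1 and the dotted lines 2-fold in each direction. Ccr7 and Ccr9 lie to the right of the 2-fold line, Ccr4, Ccr8, Ccr2 and Ccr3 to the left of it, and the intervals of Ccr6 and Ccr1 cross a line.

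Both skin and barrier receptors were lower, to very different extents. Ccr4, the receptor for CCL17 and CCL22, maps to chromosome 9, 114490316 to 114504916, minus strand (ENSMUSG00000047898.7). It had 99 counts in the knockout library and 1936 in the wild-type library, which is 6.80 CPM (5.53 to 8.28) in the knockout library and 107 CPM (102 to 112) in the wild-type library. The level was 15.7-fold lower (12.8 to 19.4) in the knockout library, and 131 of the measured genes had a lower ratio. Ccr8, on chromosome 9 at 120092114 to 120094906, plus strand (ENSMUSG00000042262.5), had 310 counts in the knockout library and 1121 in the wild-type library. Its level was 21.3 CPM (19.0 to 23.8) in the knockout library and 61.9 CPM (58.3 to 65.6) in the wild-type library, 2.90-fold lower (2.56 to 3.30). The ratio of Ccr8 exceeded that of Ccr4 by 5.41 times (4.24 to 6.93), so Ccr8 kept more of its wild-type level than Ccr4 did. Per length, Ccr8 was at 18.4 FPKM in the knockout library and 53.5 FPKM in the wild-type library, and Ccr4 at 2.44 FPKM in the knockout library and 38.3 FPKM in the wild-type library. FPKM here are the authors' values, counts scaled by gene length and library size.

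The receptors of inflamed tissue were the least abundant as a class in the knockout library. Ccr2, the receptor for CCL2, maps to chromosome 9, 124101950 to 124113557, plus strand (ENSMUSG00000049103.14). It had 141 counts in the knockout library and 1959 in the wild-type library, or 9.69 CPM (8.16 to 11.4) in the knockout library and 108 CPM (103 to 113) in the wild-type library. The level was 11.2-fold lower (9.40 to 13.3), and 180 measured genes had a lower ratio. Of the 50-base windows of its first annotated transcript, 3.73% also occur in another gene, so a small part of its reads could be shared. In Ccr4 that share was 1.60%, and in the other 6 receptors it was 0%.

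Ccr3, the eotaxin receptor of eosinophils, maps to chromosome 9, 124021972 to 124031689, plus strand (ENSMUSG00000035448.9). It had 13 counts in the knockout library and 312 in the wild-type library, or 0.894 CPM (0.476 to 1.53) in the knockout library and 17.2 CPM (15.4 to 19.2) in the wild-type library. At 19.3-fold lower (11.1 to 36.6) it had the lowest ratio of the 8, and 113 measured genes had a lower one. Its ratio was within counting error of those of Ccr4 and Ccr2. Ccr4 exceeded Ccr3 by 1.23 times (0.675 to 2.42), and Ccr2 exceeded Ccr3 by 1.73 times (0.963 to 3.37). Ccr1, on chromosome 9 at 123962124 to 123968692, minus strand (ENSMUSG00000025804.5), was scarce in both libraries, with 21 counts in the knockout library and 67 in the wild-type library. Its level was 1.44 CPM (0.894 to 2.21) in the knockout library and 3.70 CPM (2.87 to 4.70) in the wild-type library. The ratio corresponds to a 2.56-fold lower level (1.55 to 4.40), whose interval reaches inside 2-fold, so Ccr1 was not called.

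The cells best known for CCR1, CCR2 and CCR3 left different traces in the libraries. Monocyte and macrophage markers summed to 217 CPM in the knockout library and 176 CPM in the wild-type library, and 0 of the 10 measured were called in either direction. Lyz2 was at 40.7 CPM in the knockout library and 37.2 CPM in the wild-type library, and Csf1r at 92.1 CPM in the knockout library and 52.9 CPM in the wild-type library. Vsig4 was at 0 in both. Cd68 was at 16.2 CPM in the knockout library and 21.2 CPM in the wild-type library, and Cd163 at 6.60 CPM in the knockout library and 12.6 CPM in the wild-type library. The 9 eosinophil, basophil and mast cell markers summed to 0.481 CPM in the knockout library and 1.71 CPM in the wild-type library, and Siglecf, Epx, Fcer1a and Ms4a2 had 0 counts in both. Neutrophil markers were low, at 6.19 CPM summed over 8 genes in the knockout library and 17.1 CPM in the wild-type library. Of the 5 measured 2 were lower, and Elane was at 0 in both libraries. Retnlg, below 1 CPM in both, went the other way, with 10 counts in the knockout library and 0 in the wild-type library. Dendritic cell markers summed to 29.5 CPM in the knockout library and 48.5 CPM in the wild-type library, with 4 of 8 measured lower and Xcr1, Clec9a and Cd209a at 0 in the knockout library. NK cell markers summed to 9.21 CPM in the knockout library and 2.70 CPM in the wild-type library, with 1 of 2 measured higher. That gene was Eomes, at 8.39 CPM in the knockout library and 1.55 CPM in the wild-type library. Klrb1c, not called, had 12 counts in the knockout library and 19 in the wild-type library. Ncr1 had 0 counts in the knockout library and 2 in the wild-type library, and Klra8 and Klre1 had 0 in both. Erythroid markers summed to 14.6 CPM in the knockout library and 51.8 CPM in the wild-type library, with 3 of 4 lower. The part of these other cells in the receptor levels was not tested.

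**Figure D3:**
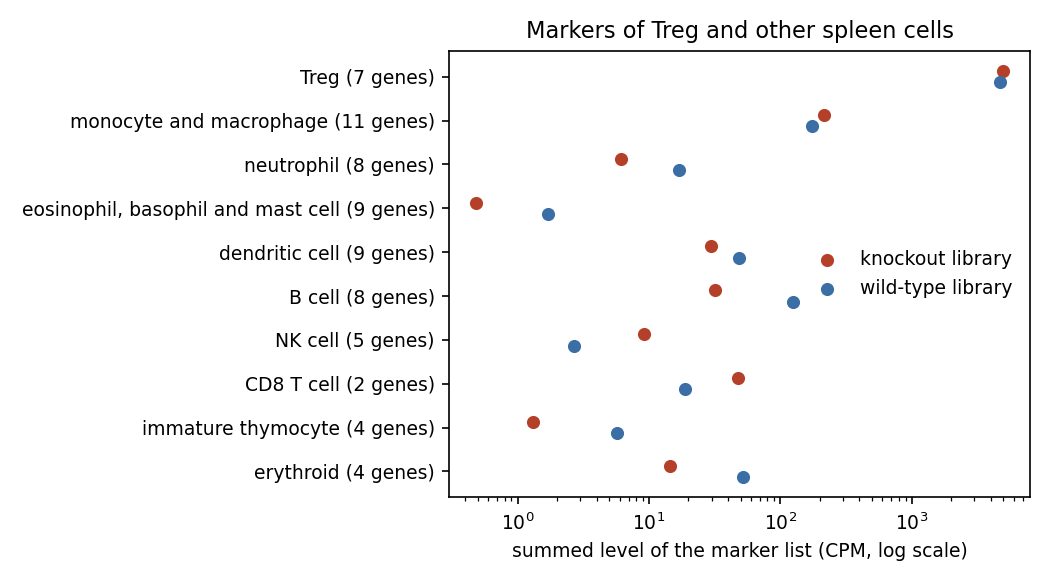
Summed CPM (log axis) of each marker list in the knockout library and the wild-type library. Treg markers sum to 5001 CPM in the knockout library and 4751 CPM in the wild-type library, monocyte and macrophage markers to 217 CPM in the knockout library and 176 CPM in the wild-type library, and B cell markers to 31.9 CPM in the knockout library and 126 CPM in the wild-type library.

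Ratios differed between receptors even where scaling between libraries plays no part. Of the 28 pairs of receptors, 24 had a ratio of ratios whose 95% counting interval excluded 1, among them 20 of the 23 pairs from different classes and 4 of the 5 pairs within a class. The ratio of Ccr7 exceeded that of Ccr4 by 40.01 times (32.6 to 49.6) and that of Ccr2 by 28.4 times (23.9 to 34.1). The 4 pairs whose interval included 1 were Ccr9 with Ccr7, Ccr4 with Ccr3, Ccr1 with Ccr8 and Ccr2 with Ccr3. Class therefore did not fix the size of a difference. Ccr1 exceeded Ccr3 by 7.47 times (3.38 to 17.1) although both are in the inflamed tissue class, and its ratio lay within counting error of that of Ccr8.

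Levels of different receptors can be compared per length. In the knockout library the order by the authors' FPKM was Ccr7 at 356 FPKM, Ccr8 at 18.4, Ccr6 at 9.73, Ccr9 at 2.71, Ccr4 at 2.44, Ccr2 at 0.690, Ccr1 at 0.510 and Ccr3 at 0.273 FPKM. In the wild-type library it was Ccr7 at 140 FPKM, Ccr8 at 53.5, Ccr4 at 38.3, Ccr6 at 10.1, Ccr2 at 7.70, Ccr3 at 5.26, Ccr1 at 1.31 and Ccr9 at 0.966 FPKM. Neighbours with overlapping counting intervals were Ccr9 and Ccr4, Ccr2 and Ccr1, and Ccr1 and Ccr3 in the knockout library, and Ccr1 and Ccr9 in the wild-type library. Ccr4 thus ranked 5 of 8 in the knockout library and 3 of 8 in the wild-type library, and Ccr9 ranked 4 in the knockout library and 8 in the wild-type library.

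The authors' gene lengths, recovered from count and FPKM, bear on that order. They were 15245 bases for Ccr9 and 14043 bases for Ccr2, which is 5.82 and 4.68 times the length of the first annotated transcript of each gene, while for the other 6 receptors the lengths differed by at most 1.16 times. Per kilobase of the first transcript, Ccr9 was at 15.7 in the knockout library and 5.62 in the wild-type library, and Ccr2 at 3.23 in the knockout library and 36.04 in the wild-type library, with the same scaling for library size. On that scale Ccr2 came next to Ccr4 in the wild-type library, with overlapping intervals, and Ccr9 next to Ccr8 in the knockout library, again with overlapping intervals. A ratio of one gene between libraries does not depend on its length.

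As a family, the 8 receptors summed to 391 FPKM in the knockout library and 257 FPKM in the wild-type library. Ccr7 made up 91.1% of the sum in the knockout library and 54.4% in the wild-type library. Without Ccr7 the other 7 summed to 34.8 FPKM in the knockout library and 117 FPKM in the wild-type library, 3.37-fold lower. Ccr4 and Ccr8 together were 5.34% of the family in the knockout library and 35.8% in the wild-type library, and Ccr1, Ccr2 and Ccr3 together 0.377% in the knockout library and 5.55% in the wild-type library. Ccr6 alone was 2.49% in the knockout library and 3.92% in the wild-type library, and Ccr9 0.692% in the knockout library and 0.376% in the wild-type library. With lengths of the first transcript, Ccr7 was 87.4% in the knockout library and 48.1% in the wild-type library, and Ccr2 was 0.793% in the knockout library and 12.4% in the wild-type library.

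**Figure D4:**
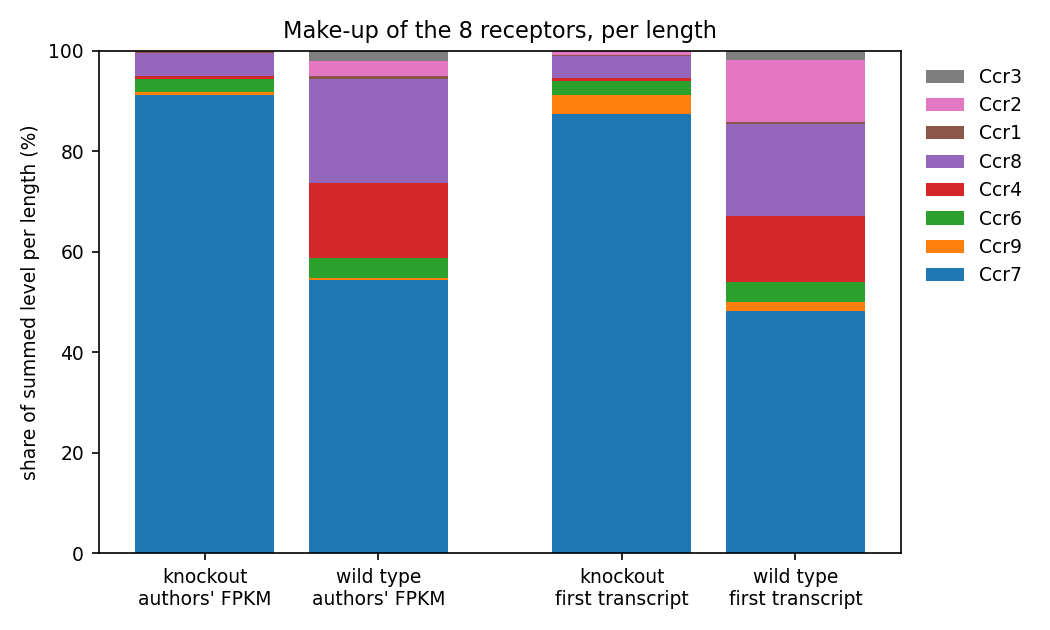
Share of each receptor in the summed level per length of the 8 receptors (%), in the knockout library beside the wild-type library, by the authors' FPKM on the left and by the length of the first annotated transcript on the right. Ccr7 takes 91.1% in the knockout library and 54.4% in the wild-type library by FPKM, and Ccr4 and Ccr8 shrink together to 5.34% in the knockout library, against 35.8% in the wild-type library.

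CC ligand genes were mostly scarce in the sorted cells. Of the 20 ligand genes, 10 were measured, and 4 of these were higher and 0 lower, with a median log2 ratio of 0.29, also with genes at 0 counts set to a floor of 3 counts. The 4 higher genes encode ligands of receptors that were lower or not called. Ccl6 and Ccl9, whose products bind CCR1, had 217 and 48 counts in the knockout library and 25 and 15 in the wild-type library, and Ccl6 was 10.8-fold higher (7.13 to 17.1) and Ccl9 3.99-fold higher (2.19 to 7.66). Ccl8, a mouse CCR8 ligand, had 42 counts in the knockout library and 0 in the wild-type library and was called higher, with a counting interval of the ratio that begins at 13.6. Ccl24, a CCR3 ligand, had 88 counts in the knockout library and 0 in the wild-type library and was called higher, with an interval that begins at 29.1. Monocytes and macrophages make these ligands too, and their marker values are given above. Ccl5 was at 6.74 CPM in the knockout library and 10.8 CPM in the wild-type library and was not called. The ligands of CCR7, Ccl19 and Ccl21a, and the CCR6 ligand Ccl20 had 0 counts in both libraries.

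Downstream of the receptors, 0 of 19 signalling genes were called in either direction, and their median log2 ratio was -0.29. Across all measured genes 11.0% were called in either direction, a share that leaves few expected among 19. Gnai2, the main Gi subunit gene of lymphocytes, was at 671 CPM in the knockout library and 808 CPM in the wild-type library. Rac2 was at 1424 CPM in the knockout library and 1441 CPM in the wild-type library, and Dock2, its activator in lymphocyte migration, at 952 CPM in the knockout library and 970 CPM in the wild-type library. Among the atypical receptors 1 of 5 was measured. This was Ccrl2, at 12.8 CPM in the knockout library and 12.5 CPM in the wild-type library.

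Adhesion and homing genes that act beside the receptors were counted by the same rule. Of the lymphoid partners, 0 of 5 were called (median 0.25), with the sphingosine 1-phosphate receptor gene S1pr1, which guides T cells out of lymphoid organs, at 477 CPM in the knockout library and 402 CPM in the wild-type library. Of the gut partners, 2 of 5 were lower (median -1.01), namely Itgae, the αE integrin, and Gpr15, a receptor for the large intestine. Itgae was 3.44-fold lower (3.26 to 3.62) and Gpr15 11.6-fold lower (6.31 to 23.7), with 11 counts in the knockout library and 159 in the wild-type library, so within the gut lists Ccr9 and Gpr15 went opposite ways. Of the skin partners, 3 of 5 were lower (median -1.78). These were Itgae again, the β1 integrin gene Itgb1, 5.58-fold lower (5.34 to 5.83), and Fut7, the fucosyltransferase that builds selectin ligands, 6.39-fold lower (4.09 to 10.4). Of the inflamed tissue partners, 5 of 6 were lower (median -2.39), namely Cxcr3, Cxcr6, Cd44, Itga1 and Icos, with Cxcr3 4.47-fold lower (3.70 to 5.42). No partner in these lists was called higher. Across all measured genes 4.34% were called higher, so in lists this short a count of 0 is near that share.

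**Figure D5:**
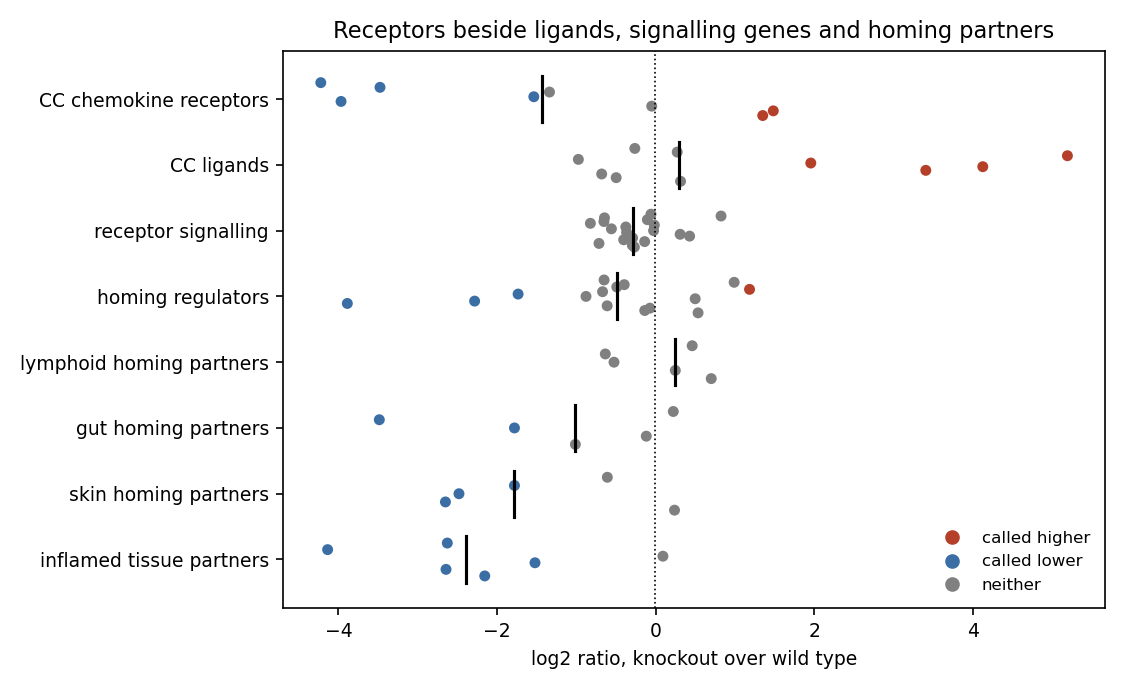
Log2 ratio of knockout to wild type for the 8 receptors and for the measured members of each list but the atypical receptors, with a black bar at the list median, a dotted line at the median of all measured genes (-0.01), and genes at 0 counts in 1 library placed at a floor of 3 counts. The receptors spread from -4.22 to 1.48. Of the 19 signalling genes 0 were called in either direction, against 11.0% of all measured genes, a share that leaves few expected among 19.

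Among 15 transcription regulators linked to T cell homing, 1 was higher and 3 lower (median log2 ratio -0.49). Bach2, which restrains effector differentiation, was at 159 CPM in the knockout library and 70.2 CPM in the wild-type library, 2.27-fold higher (2.12 to 2.43). Of the lower ones, Rora was 4.87-fold (4.44 to 5.35) and Prdm1 3.33-fold lower (2.96 to 3.76). Klf2, known to promote the lymphoid homing receptors, was at 971 CPM in the knockout library and 671 CPM in the wild-type library, a ratio of 1.45 (1.41 to 1.48) that was not called. Satb1 was at 739 CPM in the knockout library and 372 CPM in the wild-type library, a ratio of 1.99 (1.93 to 2.05) that was not called either.

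Of the 8 receptor genes, 6 lie on chromosome 9, and Ccr9, Ccr1, Ccr3 and Ccr2 form a cluster with other chemokine receptor genes there. Adjacent genes did not all share a direction. Cxcr6, which follows Ccr9 at 22144 bases, was lower, at 5.64 CPM in the knockout library and 35.4 CPM in the wild-type library, beside the higher Ccr9. Xcr1, which lies before Ccr1, had 0 counts in the knockout library and 48 in the wild-type library. On chromosome 11 the gene before Ccr7, Tns4, was at 9.97 CPM in the knockout library and 2.32 CPM in the wild-type library, a higher level with the interval of its ratio from 3.03 to 6.22, and the gene after it, Smarce1, was at 101 CPM in the knockout library and 103 CPM in the wild-type library. Glb1, beside Ccr4, was at 30.5 CPM in the knockout library and 59.3 CPM in the wild-type library, and Slc25a38, beside Ccr8, at 41.8 CPM in the knockout library and 33.6 CPM in the wild-type library, and neither was called. The genes on both sides of Ccr6, Fgfr1op and Mpc1, had ratios of 1.11 (0.970 to 1.27) and 1.03 (0.821 to 1.29).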

How the data were processed

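The submitters' processing notes name TopHat, HTSeq and the mm10 build. Their versions and the gene annotation are not given in the sources used. Libraries were made from total RNA with a TruSeq v2 kit, which does not mark strand, per the labels' protocols. Each deposited table holds whole-number read counts and the authors' FPKM for each gene name, per the file headers. Counts were used for ratios, and FPKM for levels per length. Counts were scaled with TMM factors (edgeR 4.0.16, R 4.3.3). Ratios have exact 95% Clopper-Pearson intervals from the 2 counts, and log2 ratios had 0.5 counts added. A gene counted as measured when either library reached 1 CPM. No model was fitted, since 1 library per genotype leaves no spread. The intervals were run on simulated Poisson counts, which hold counting error alone, so that run says nothing of variation among mice or libraries. A floor of 3 counts is 0.206 CPM in the knockout and 0.166 CPM in the wild-type library; like the intervals it covers counting error only, since the reads carry no molecular identifiers and are not independent molecules.

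Named genes were the receptors, their nearest protein-coding neighbours, and from each list the 3 most abundant members and up to 6 called ones. Some of these are not reported here. Receptors, lists and motifs were chosen with earlier results of these data known. Alternatives were other scalings (DESeq2 1.42.0 size factors among them), filters, folds, added counts and gene lengths. Calculations ran in Python 3.11.15 (scipy 1.17.1, pandas 2.3.3), with plots from matplotlib 3.10.9.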

Additional observations from a re-analysis of the deposited data

How the results depend on the processing

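All 32 recomputed receptor ratios kept their direction and moved by at most 0.13 on the log2 scale. The settings were library totals, DESeq2 size factors, upper-quartile factors and 2 added counts. Added counts do not enter the 2-fold rule, so calls were compared under the other settings only. The same 2 receptors were called higher and the same 4 lower under the other scalings and filters. With an interval wholly beyond 1.5-fold, or a ratio itself beyond 2-fold, Ccr1 joined the lower ones. Those looser rules called 1290 and 1206 of all measured genes higher and 1659 and 1567 lower. With the length of the first annotated transcript, chosen after seeing the data, levels per kilobase in the knockout library were 15.7 for Ccr9, 11.2 for Ccr6 and 3.23 for Ccr2, and in the wild-type library 5.62, 11.6 and 36.04 for the same genes, because these lengths are shorter than the authors'. Shares of the family were then 87.4% for Ccr7, 3.86% for Ccr9 and 0.793% for Ccr2 in the knockout library, and 48.1% for Ccr7, 1.94% for Ccr9, 13.1% for Ccr4, 18.1% for Ccr8, 12.4% for Ccr2 and 1.81% for Ccr3 in the wild-type library. No paired analysis was possible because there is 1 library per genotype, which also bars leaving a library out. Depth limits Ccr1 and Ccr3 most, with 21 and 13 counts in the knockout library.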

Other observations

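Ccr10, the receptor for CCL27 of skin and CCL28 of mucosal surfaces, is a CC receptor outside the 8 described above. It had 1 count in the knockout library and 567 in the wild-type library, a 455-fold lower level with a counting interval from 81.4 to 18012. It lies on chromosome 11 from 101172997 to 101175443 on the minus strand (mm10). Both neighbouring protein-coding genes were lower too. Plekhh3, which lies 1645 bases away, had 6 counts in the knockout library and 140 in the wild-type library, 18.7-fold lower (8.39 to 51.9). Cntnap1, whose gene span touches or overlaps that of Ccr10 (a gap of 0 bases), had 4 counts in the knockout library and 613 in the wild-type library. That is 123-fold lower (47.8 to 453).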
